A study of Mus musculus with 6 samples.

Results

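Receptors that guide leukocytes toward chemoattractants were compared between Ly6G+ and Ly6G- dendritic cells (DC) sorted from mouse bone marrow cultures. Of 9 listed receptor genes, 8 had at least 1 probe set whose platform annotation gave a single gene symbol. These were the chemokine receptors Cxcr2, Cxcr4, Ccr1, Ccr2 and Cx3cr1, the formyl peptide receptor Fpr2, the leukotriene B4 receptor Ltb4r1 and the anaphylatoxin receptor C5ar1. The ninth, Fpr1, had no such probe set and was not analysed here. The 8 genes were read by 14 of the 45101 probe sets on the array, and were listed by name, not by their values.

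C57BL/6 mouse marrow was grown in GM-CSF, a myeloid growth factor, at 10 ng/ml. On day 6, cells with surface CD11c and MHC class II were sorted by flow cytometry into a fraction with Ly6G, a surface protein typical of neutrophils, and a fraction without it. Both groups therefore share strain, culture, growth factor and the CD11c and MHC II gates, and differ in Ly6G. The labels name 3 samples per group, each on 1 Affymetrix Mouse Genome 430 2.0 array, and do not say which samples share a culture, how many mice were pooled or the age of the mice. Whether replicates are separate cultures is not stated, so the p-values cover the spread among these 6 arrays alone, and that spread may be technical.

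Chemoattractant receptors are membrane proteins that couple mainly to inhibitory G proteins, whose beta and gamma chains activate phosphoinositide 3-kinase gamma and Rac to steer crawling cells. Cxcr2 responds to the chemokines Cxcl1, Cxcl2, Cxcl3 and Cxcl5 and is a hallmark of mature neutrophils, while Cxcr4, the receptor for Cxcl12, holds immature neutrophils in the marrow. Ccr2 brings monocytes out of the marrow toward Ccl2 and Ccl7, Ccr1 responds to Ccl3, Ccl5, Ccl6 and Ccl9, and Cx3cr1 binds fractalkine. Fpr2 recognises formylated bacterial peptides, annexin A1 and the cathelicidin Camp. Ltb4r1 recognises leukotriene B4, and C5ar1 the complement fragment C5a.

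Values were linear MAS5 signals, as deposited, and the mean of each array was 250 once 2% was trimmed at either end. A probe set was tested if its signal lay above the array's 40th percentile (36.0 to 61.7 over the arrays) on at least 3 of 6 arrays. This kept 28254 probe sets, 13 of the 14 receptor probe sets, and 13262 genes, each gene read by its brightest kept probe set. Log2 fold changes are of log2(signal + 16), Ly6G+ over Ly6G-, which understates the change of dim genes. Hybridization controls, spiked in before hybridization, split the arrays across both groups into a low side (Ly6G+ DC 1 and 3, Ly6G- DC 1; geometric means 1529 to 2039) and a high side (Ly6G+ DC 2, Ly6G- DC 2 and 3; 6688 to 12842). For Actb the 3' probe set over the 5' one, a measure of RNA integrity and labelling, gave 1.17 to 1.49 among low-side arrays and 3.98 to 6.85 among high-side arrays. The titles carry 1 array name for both samples numbered 1 and another for the rest. All 13 listed dendritic cell markers were tested: 12 had negative log2 fold changes and 1 a positive one, against 44.3% of genes positive. Their summed signal was 80404 to 164000.0 in Ly6G+ DC and 120354 to 303780.0 in Ly6G- DC. These sums overlapped between groups, but lay lower on every low-side array (80404 to 120354) than on every high-side array (164000.0 to 303780.0). By gene, 8 of the 13 were lower in Ly6G+ DC without overlap and 0 higher, against 7.86% and 4.95% of genes. By limma, a linear model of the group, 6 were lower at an unadjusted p under 0.05 and 0 higher, against 3.51% and 3.39%. Limma's adjusted test passed 0 of them. Their mean log2 value, centred by gene, was -0.70 to -0.20 in Ly6G+ DC and 0.23 to 0.76 in Ly6G- DC. Both fractions were gated on CD11c and MHC II, so these markers do not check the Ly6G sort. Ly6g itself was not named in the annotation used.

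Promoter sequences are shown for Cxcr2 and Fpr2, whose groups did not overlap, and for Cxcr4, which had the difference nearest 0. They are from RefSeq on build GRCm38.p6, which held all 9 listed receptors, and run from 250 bases before to 50 after the gene's start, 5' to 3' on the gene's strand. Capitals mark matches, on either strand, to short motifs of 6 factors. For C/EBP the letters searched were TTGCNNAA, with N any base. For PU.1, a myeloid lineage factor, they were GAGGAAG. RUNX proteins were searched by the letters TGTGGT. The repressor GFI1 was searched by AAATCA, and the TATA box by TATAAA. NF-kB was searched by its core motif. The motifs were counted independently, and matches of different motifs may share bases. Windows are chr1:74153744-74154043 (plus strand), chr17:17887574-17887873 (plus strand) and chr1:128592250-128592549 (minus strand).
Cxcr2: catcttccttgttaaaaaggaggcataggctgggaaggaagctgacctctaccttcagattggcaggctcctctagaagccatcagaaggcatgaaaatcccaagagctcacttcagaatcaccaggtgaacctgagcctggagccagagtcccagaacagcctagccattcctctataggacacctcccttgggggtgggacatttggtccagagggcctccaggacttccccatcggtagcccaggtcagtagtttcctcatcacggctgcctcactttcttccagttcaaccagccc
Fpr2: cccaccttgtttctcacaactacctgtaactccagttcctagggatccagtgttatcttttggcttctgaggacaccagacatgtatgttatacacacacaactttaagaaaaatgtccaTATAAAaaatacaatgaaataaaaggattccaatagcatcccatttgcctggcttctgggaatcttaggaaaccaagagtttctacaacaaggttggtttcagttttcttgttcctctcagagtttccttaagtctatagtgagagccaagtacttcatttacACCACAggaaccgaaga
Cxcr4: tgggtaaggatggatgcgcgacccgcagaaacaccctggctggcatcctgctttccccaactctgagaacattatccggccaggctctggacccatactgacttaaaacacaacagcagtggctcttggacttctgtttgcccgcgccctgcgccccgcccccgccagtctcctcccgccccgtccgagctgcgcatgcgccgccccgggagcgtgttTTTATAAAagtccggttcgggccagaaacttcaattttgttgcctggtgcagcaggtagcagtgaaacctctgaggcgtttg

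The Cxcr2 window held none of the 6 motifs, which says only that these letters are not there. The Fpr2 window held a TATAAA at -130 and a RUNX match at 34 on the opposite strand, counted from the gene's start. The Cxcr4 window held TATAAA at -30 and an overlapping match on the opposite strand at -32, and had a GC content of 59.3%, against 54.0% for Cxcr2, 39.3% for Fpr2 and a median of 52.7% over all 32851 promoters. The RUNX letters were in 5 of the 9 receptor promoters (Ccr1, Cx3cr1, Fpr2, Ltb4r1 and C5ar1) and in 16.8% of all promoters. The PU.1 letters were in 1 (Ltb4r1, with 2 matches) and in 13.6% of all, those of GFI1 in 3 and 14%, and TATAAA in 3 and 13.6%. C/EBP and NF-kB letters were in 0 of 9, and in 10.8% and 1.47% of all. A match is a run of letters and was not tested as a binding site.

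Cxcr2 was above background in Ly6G+ DC alone, the 1 receptor of which this held. Probe set 1421734_at read 256, 287 and 296 in Ly6G+ samples 1, 2 and 3, against 14.7, 24.3 and 19.2 in Ly6G- samples 1, 2 and 3, the order used throughout. Every Ly6G+ array therefore lay far above every Ly6G- array, and replicates within a group were close, with means of 279.8 ± 21.1 and 19.4 ± 4.80 (SD, n = 3). All 3 Ly6G- signals lay under the 40th percentile of their array, so Cxcr2 was not well above background there, and it passed the filter through the Ly6G+ arrays alone. It was at least 3.96-fold higher in Ly6G+ DC, as the Ly6G+ mean against the percentile in the Ly6G- arrays. The fit gave an adjusted p of 0.0578 by limma, Benjamini-Hochberg adjusted over all genes, which misses the threshold of 0.05. Its fitted log2 value, 3.07 ± 0.39 (SE), is set against signals not above background and was 2.04 to 3.80 over 19 alternative settings, so it is no measured fold. Over those settings the adjusted p ran from 0.0134 to 0.9997 and was under 0.05 in 10. Blocked by hybridization control side, limma gave an adjusted p of 0.0373, in a fit that called 0.0679% of genes as higher. In bulk samples such as these, fewer cells of a type and less RNA per cell cannot be told apart.

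**Figure D1:**
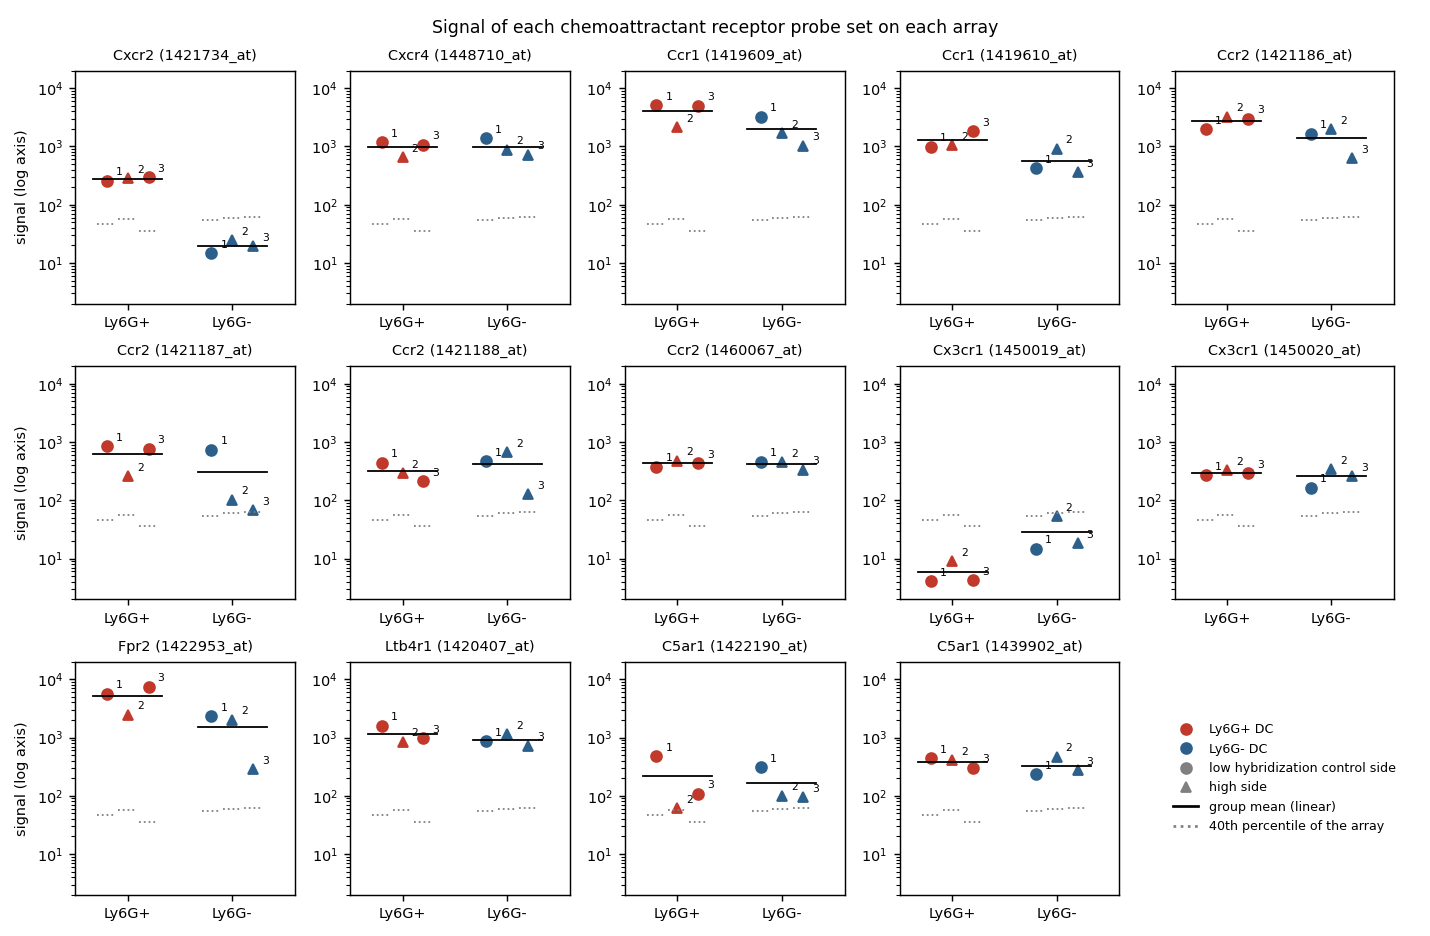
Signal of each of the 14 receptor probe sets (log axis) on the 3 Ly6G+ and 3 Ly6G- arrays, with replicate numbers, the group mean as a line and each array's 40th percentile as a dotted line; circles are arrays of the low and triangles of the high hybridization control side. Cxcr2 sits at 256 to 296 in Ly6G+ DC and at 14.7 to 24.3 in Ly6G- DC, while most other receptors overlap between groups or lie close.

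Neutrophil markers differed in the same direction as Cxcr2, and 0 passed limma's adjusted test while 12 were higher at an unadjusted p under 0.05, against 3.39% of genes. All 13 of 14 listed markers that could be tested, none of them one of the 9 receptors, had positive log2 fold changes, with a median of 3.20 when the 2 whose Ly6G- mean lay under the percentile, Cd177 and Camp, were set at their bounds, against -0.07 over all genes. Their summed signal was 85432 to 109837 in Ly6G+ DC and 11365 to 27562 in Ly6G- DC, so the groups did not overlap. Of these markers Cd177, a neutrophil surface glycoprotein, lay under the 40th percentile on all Ly6G- arrays. S100a8 and S100a9, subunits of calprotectin, had log2 fold changes of 3.53 and 4.07. The sort was on a neutrophil surface protein, and the part of these markers' cells in the receptor values was not tested.

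Fpr2 had the largest difference among the receptors measured in both groups. Signals of probe set 1422953_at were 5638, 2463 and 7477 among Ly6G+ arrays and 2315, 2019 and 286 among Ly6G- arrays. The groups did not overlap, but Ly6G+ DC 2 lay only just above Ly6G- DC 1, and Ly6G- DC 3 was far below all other arrays. The log2 fold change was 2.07 ± 0.70 (SE; interval 0.52 to 3.61), and limma's adjusted p of 0.703 did not pass. Without Ly6G- DC 3 the log2 fold change was 1.12 ± 0.48. It was 1.48 within the low side and 1.66 within the high side, and 1.57 ± 0.56 with the side as a block. The high side sets Ly6G+ DC 2 alone against Ly6G- DC 2 and 3, and against Ly6G- DC 2 alone the value was 0.29. Fpr2 lies in a cluster of related receptor genes on chromosome 17, with 0 coding genes between it and Fpr1, and cross-hybridization among family members was not tested.

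Ccr1 was measured by 2 probe sets. The brighter, 1419609_at, gave 5133, 2158 and 4985 among Ly6G+ arrays and 3224, 1703 and 1024 among Ly6G- arrays. The groups overlapped, and all 3 arrays of the low side lay above all 3 of the high side. Within each side, every Ly6G+ array lay above every Ly6G- array. Its log2 fold change was 1.09 ± 0.46 (SE), with a limma adjusted p of 0.710, and 0.67 ± 0.25 with the side as a block. The dimmer probe set, 1419610_at, gave 996, 1047 and 1821 against 422, 917 and 364, with no overlap between groups, and had a log2 fold change of 1.22 ± 0.40 (SE; adjusted p = 0.836 by limma over kept probe sets). Within the sides the brighter probe set of this receptor for Ccl3 and Ccl5 had 0.65 (low) and 0.70 (high), and the dimmer one 1.64 and 0.84. Between Ly6G+ DC 2 and Ly6G- DC 2 alone, both high-side arrays, the brighter one had 0.34 and the dimmer one 0.19. Without Ly6G- DC 3 the brighter one had 0.70 ± 0.48.

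Ccr2 had 4 probe sets, and they disagreed. The brightest, 1421186_at, gave 1990, 3250 and 2986 among Ly6G+ arrays and 1658, 1976 and 633 among Ly6G- arrays, so the groups were separated by a narrow margin. Its log2 fold change was 1.06 ± 0.42 (SE; interval 0.13 to 1.99; limma adjusted p = 0.705), and 0.56 ± 0.36 without Ly6G- DC 3. Within the sides the difference was 0.55 on the low side and 1.52 on the high side. Probe set 1421187_at gave 841, 259 and 769 against 731, 102 and 67.3, where the low side lay above the high side on every array and the log2 fold change was 1.55 ± 0.75. By contrast 1421188_at gave 438, 290.1 and 212 against 464, 674 and 127, and 1460067_at gave 377, 474 and 431 against 458, 446 and 335. These last probe sets overlapped between groups, with log2 fold changes of -0.20 ± 0.54 and 0.05 ± 0.29, and the mean of all 4 probe sets gave 0.62 ± 0.39. A statement on Ccr2, the monocyte receptor, therefore depends on the probe set read.

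Cxcr4 was the one receptor tested without a positive difference. Its signals were 1171, 656 and 1069 among Ly6G+ arrays and 1378, 875 and 716 among Ly6G- arrays. The groups overlapped fully, and the low side lay above the high side on every array. The log2 fold change was -0.02 ± 0.34 (SE), with a 95% interval of -0.77 to 0.73, which holds differences of either sign. Within both sides every Ly6G+ array lay below every Ly6G- array, with differences of -0.30 and -0.27, and with the side as a block the log2 fold change was -0.28 ± 0.24 (limma adjusted p = 0.813). After scaling the arrays to the same median it was 0.30 ± 0.43, so its sign turned.

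The receptors for leukotriene B4, C5a and fractalkine overlapped between groups. Ltb4r1 gave 1601, 854 and 972 among Ly6G+ arrays and 866, 1133 and 728 among Ly6G- arrays, with Ly6G+ DC 1 the highest array. Its log2 fold change was 0.29 ± 0.32 (SE; interval -0.41 to 1.002), and 0.027 without Ly6G+ DC 1. The brighter probe set of C5ar1, 1439902_at, gave 436, 404 and 301 against 236, 468 and 276, and a log2 fold change of 0.25 ± 0.33 (interval -0.48 to 0.99), with 0.061 without Ly6G- DC 1, 0.53 without Ly6G- DC 2 and 0.57 with a common median. In both receptors the highest Ly6G- array lay above at least 1 Ly6G+ array. Its other probe set, 1422190_at, gave 483, 60.8 and 109 against 309, 99.6 and 95.1, with a log2 fold change of 0.06 ± 0.68 and the number 1 arrays well above the rest in both groups. Cx3cr1, which in marrow marks monocytes, gave 269, 331 and 294 against 164, 345 and 259 by probe set 1450020_at, and a log2 fold change of 0.26 ± 0.33 (interval -0.47 to 0.99). Its other probe set, 1450019_at, gave 4.04, 9.03 and 4.21 against 14.6, 53.7 and 18.2, under the 40th percentile on every array. That probe set was not well above background in either group, so its order, lower in Ly6G+ DC, gives no fold.

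**Figure D2:**
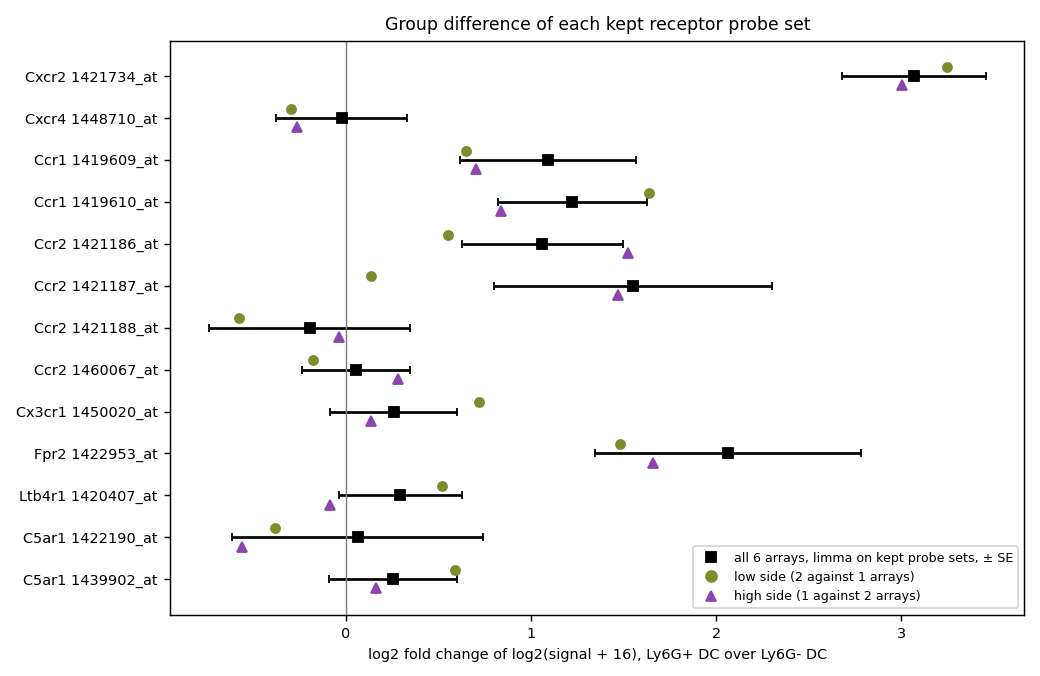
Log2 fold change (Ly6G+ DC over Ly6G- DC) of the 13 kept receptor probe sets from limma over all 6 arrays (squares, bars ± SE), with the difference within the low (circles) and high (triangles) hybridization control side. The points of Cxcr2 are set against Ly6G- signals under the 40th percentile and are no measured folds. Fpr2 and both Ccr1 probe sets are positive on both sides, where the high side sets Ly6G+ DC 2 alone against Ly6G- DC 2 and 3. The 4 Ccr2 probe sets spread from -0.20 to 1.55, and Cxcr4 is slightly negative on both sides.

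Counted together, 0 of 8 tested receptors passed limma's adjusted p of 0.05, as did 0 of 13262 genes (0% of the background). At an unadjusted p under 0.05, limma gave 4 receptors as higher and 0 as lower (Cxcr2, Fpr2, Ccr2 and Ccr1), against 3.39% of genes higher and 3.51% lower, or 6.90% in either direction. That background depends on the scaling: with a common median 1038 of 13262 genes were higher and 122 lower, and the receptors again 4 higher. Groups did not overlap for 3 receptors, all higher (Cxcr2, Fpr2 and Ccr2), against 4.95% of genes higher and 7.86% lower. Cxcr2 is the 1 receptor that could be tested only through the group where it was high, so these counts describe the receptors and carry no test. By probe set, 4 of the 13 kept were without overlap and higher, and 0 lower, against 4.49% and 7.24% of kept probe sets. Within both hybridization control sides 6 were higher and 1, Cxcr4, was lower, against 12.3% and 15.4% of kept probe sets. The low side lay above the high side for 4 of 13, namely Cxcr4, 1419609_at of Ccr1, 1421187_at of Ccr2 and 1422190_at of C5ar1, against 11.5% of kept probe sets, while the reverse held for 17.3%. Of the 8, 7 had a positive log2 fold change, against 44.3% of genes, and their median was 0.68, against -0.07 over all genes. Scaling to a common median moved the median of all genes to 0.24.

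Other receptors of the same kind ranged from -0.98 to 0.81 in log2 fold change. Of 32 listed, 17 were tested: 8 had positive and 9 negative log2 fold changes, with a median of -0.04, and 0 passed limma's adjusted test. At an unadjusted p under 0.05 limma gave 1 as lower, against 3.51% of genes: Ccr7, which guides mature dendritic cells to lymph nodes. Its signals were 5865, 4227 and 4080.4 among Ly6G+ arrays and 10131, 6096 and 12719 among Ly6G- arrays, lower on every Ly6G+ array. The log2 fold change was -0.98 ± 0.36 (SE; limma adjusted p = 0.705), the opposite sign to Fpr2, and -0.65 ± 0.39 with a common median. Ackr3, a scavenger of Cxcl12, gave 431, 665 and 833 against 262, 696 and 225, with 0.81 ± 0.43. Ccrl2, which presents chemerin, had 0.69 ± 0.34, P2ry14, a receptor for UDP-glucose, 0.49 ± 0.36, and Ackr4, a scavenger of Ccr7 ligands, -0.58 ± 0.37, and all of these overlapped between groups. Ackr4 had -0.30 without Ly6G+ DC 1 and -0.27 with a common median. Its other kept probe set, 1437669_x_at, had -0.94 ± 0.46 and overlapped between groups.

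Among ligands, groups did not overlap for the Fpr2 ligand Camp, the Cxcr2 ligands Cxcl3 and Cxcl2, and the Ccr1 ligand Ccl3. Nor did they for Anxa1, another Fpr2 ligand, which is named after its values were seen. By gene, these 5 of the 20 tested were higher without overlap, against 4.95% of all genes. Of 24 listed ligands and enzymes that make leukotriene B4, 20 were tested, and 0 passed limma's adjusted test. Of those tested, 16 had positive log2 fold changes, against 44.3% of genes, with a median of 0.38 (0.33 with 3 genes at their bounds). At an unadjusted p under 0.05 limma gave 5, all higher, against 3.39% of genes: Camp, Cxcl3, Cxcl2, Ccl3 and Ccl2. Cxcl2 gave 16377, 18300.1 and 19685 among Ly6G+ arrays and 8298, 6828 and 3926 among Ly6G- arrays, and Cxcl3 gave 6032, 6608 and 11417 against 2429, 2393 and 848. Each Ly6G+ array lay above each Ly6G- array for both of these Cxcr2 ligands, with log2 fold changes of 1.57 ± 0.38 and 2.16 ± 0.44 (SE). Camp, a neutrophil granule peptide that Fpr2 recognises and a gene of the neutrophil marker list too, gave 1166, 553 and 1911 against 38.1, 161 and 10.4. It lay above the 40th percentile on 1 of 3 Ly6G- arrays and was at least 11-fold higher in Ly6G+ DC, with a limma adjusted p of 0.0839.

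Ccl3, a Ccr1 ligand, gave 3242, 3086 and 6678 among Ly6G+ arrays and 1225, 2152 and 1426 among Ly6G- arrays, with a log2 fold change of 1.37 ± 0.37 (SE). Ccl2, the main Ccr2 ligand, gave 662, 270 and 1173 against 143, 444 and 115, so the groups overlapped, with 1.53 ± 0.57. Ccl6 and Ccl9, also ligands of Ccr1, overlapped between groups, with 0.23 ± 0.37 and 0.11 ± 0.35. The other probe set of Ccl9, 1448898_at, had 1.45 ± 0.63 and overlapped too, and the mean of both gave 0.78 ± 0.35. In the fit of all kept probe sets, those of Cxcl1, chosen for mention after its values were seen, disagreed: the brightest had 0.42 ± 0.48 and overlapped between groups, while 1419209_at and 1457644_s_at had 1.80 ± 0.42 and 1.66 ± 0.38 without overlap. Cxcl12, the Cxcr4 ligand, was dim and had a fitted value of -1.33 ± 0.70. Its Ly6G+ mean lay under the 40th percentile, with 2.43 on Ly6G+ DC 3, so that value is no measured fold. At its bound it was 1.78-fold lower in Ly6G+ DC. Cxcl12 was also chosen after its values were seen, and its groups overlapped.

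**Figure D3:**
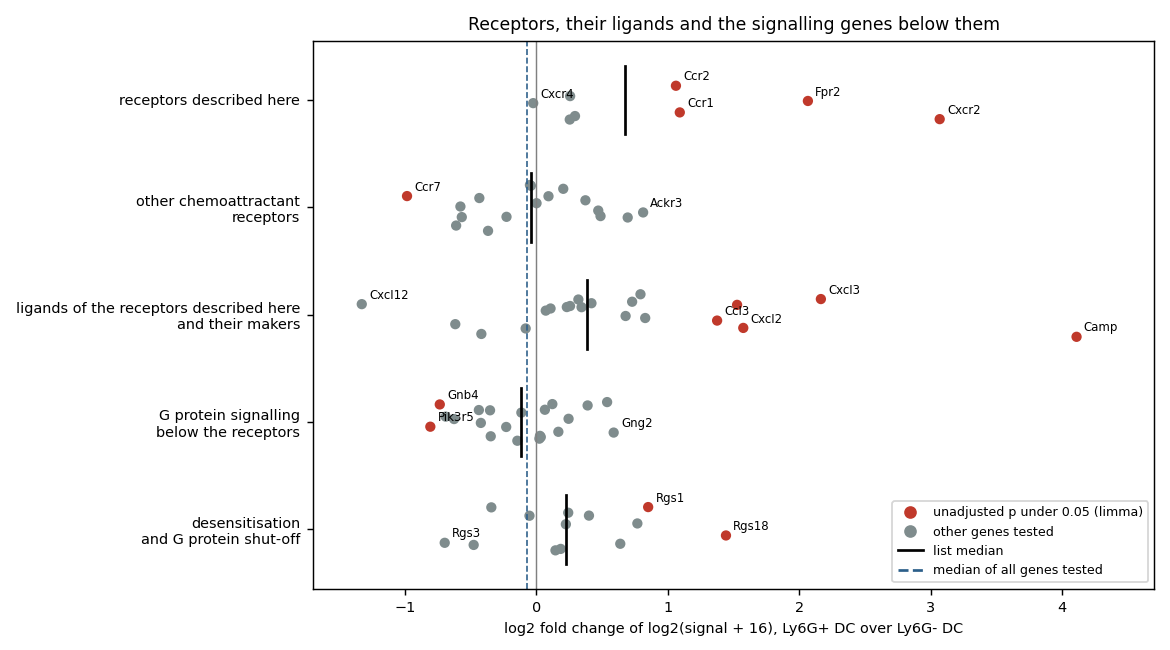
Log2 fold change (Ly6G+ DC over Ly6G- DC) of each tested gene of the receptors described, other chemoattractant receptors, ligands, and signalling and desensitisation genes; red points have an unadjusted limma p under 0.05, black lines are list medians and the dashed line is the median of all genes. Fpr2 stands at 2.07 and the Cxcr2 ligands Cxcl3 and Cxcl2 at 2.16 and 1.57, and signalling genes lie between -0.81 and 0.59. The points of Cxcr2, Camp and Cxcl12 are fitted values of genes that have only bounds, of 3.96-fold, 11-fold and 1.78-fold (lower).

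The signalling genes below the receptors ranged from -0.81 to 0.59 in log2 fold change. Of 23 listed, 21 were tested: 10 had positive and 11 negative values, with a median of -0.11, and 0 passed. At an unadjusted p under 0.05, limma gave Pik3r5 and Gnb4, both lower, against 3.51% of genes; with a common median they had -0.48 ± 0.32 and -0.41 ± 0.35, past that threshold no longer. Pik3r5, a regulatory subunit of phosphoinositide 3-kinase gamma, gave 1757, 1782 and 1573 among Ly6G+ arrays and 3044, 2725 and 3211 among Ly6G- arrays. Its replicates were tight and its groups far apart, with a log2 fold change of -0.81 ± 0.26 (SE; limma adjusted p = 0.695). The kinase's other subunits had -0.69 ± 0.35 (Pik3r6) and -0.63 ± 0.34 (Pik3cg, catalytic), each overlapping between groups. With a common median these were -0.36 ± 0.33 and -0.30 ± 0.34. The other kept probe set of Pik3r6 had -0.21 ± 0.43 and that of Pik3cg -0.77 ± 0.51, both with overlap. Gnb4, a G protein beta chain, had -0.73 ± 0.31, and -0.53 ± 0.32 without Ly6G- DC 1, and its other kept probe sets -0.80 ± 0.40 and -0.77 ± 0.40.

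Gng2, a G protein gamma chain, had 0.59 ± 0.31 without overlap between groups. Its other probe sets had 2.25 ± 0.67 (1418451_at, without overlap), 0.49 ± 0.49 (1418452_at, with overlap) and 0.50 ± 0.34 (1428157_at, with overlap). Probe set 1418451_at lay under the 40th percentile on Ly6G- DC 3 (21.5), and 1418452_at on every Ly6G- array. The values of these are therefore set partly or wholly against background. Gnai2, the main inhibitory alpha chain of leukocytes, and Cdc42, a small GTPase of cell polarity, overlapped between groups and had -0.42 ± 0.45 and 0.07 ± 0.33. Of 14 genes that shut off receptor signalling, 13 were tested: 9 had positive log2 fold changes, against 44.3% of genes, with a median of 0.22, and 0 passed. By limma 2, Rgs18 and Rgs1, were higher at an unadjusted p under 0.05 and 0 lower, against 3.39% and 3.51% of genes. Rgs1, which speeds G protein shut-off, gave 3550, 4211 and 7532 among Ly6G+ arrays and 2629, 2665 and 2721 among Ly6G- arrays, without overlap, and a log2 fold change of 0.85 ± 0.34. Rgs18 had 1.44 ± 0.56 with overlapping groups, and 0.75 ± 0.49 by its other probe set. The first lay under the 40th percentile on Ly6G- DC 1 and 3 (41.2 and 29.8), and the other on Ly6G- DC 3 (42.7). Both values of Rgs18 are therefore set partly against background. Rgs3, Grk5, Rgs2 and the arrestin Arrb2 had -0.70 ± 0.32, 0.77 ± 0.39, 0.64 ± 0.37 and -0.48 ± 0.32 by their brightest probe sets, which overlapped between groups. Other probe sets of Grk5 (1436672_at, 1.69 ± 0.57) and Rgs2 (1419247_at, 1.17 ± 0.34) did not overlap and were higher on every Ly6G+ array. That of Grk5 lay under the 40th percentile on Ly6G- DC 1 and 3 (31.5 and 15.0), so its value is set partly against background. The remaining Rgs2 probe sets, 1443250_at and 1447830_s_at, overlapped between groups and had -0.63 ± 0.54 and 0.45 ± 0.47.

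Markers of further cell types were set beside the receptors, since the sort could hold such cells. Of 8 monocyte markers 6 were tested, and their summed signal was 10032 to 15724 in Ly6G+ DC and 3530 to 11122 in Ly6G- DC, which overlapped. Their log2 fold changes, 5 positive and 1 negative, had a median of 0.99. By limma 3 were higher at an unadjusted p under 0.05 and 0 lower, against 3.39% and 3.51% of genes, and 0 passed when adjusted. Groups did not overlap for 2, Plac8 (1.63 ± 0.41, SE) and Vcan (1.23 ± 0.38), both higher, against 4.95% of genes. Ly6G- DC 3 was the array with the lowest signal of Fpr2 and of every Ccr1 and Ccr2 probe set. It was also the lowest in the sums of neutrophil, monocyte and macrophage markers and of mast cell, basophil and eosinophil markers. In dendritic cell markers it was the highest. Macrophage markers (8 of 9 tested) summed to 31668 to 43570.0 and 28532 to 54389, and mast cell, basophil and eosinophil markers (6 of 8) to 1956 to 3739 and 1062 to 1382. T and NK cell markers (2 of 7) summed to 439.9 to 1047 and 1349 to 1678, and B cell markers (5 of 6) to 475 to 619 and 553 to 972. The T and NK cell sum holds Zap70 and Klrd1 alone, since Cd3e, Cd3g, Cd2, Nkg7 and Klrb1c could not be tested. Apart from Cd177, no tested marker lay under the 40th percentile on all arrays of a group. The mast cell, basophil and eosinophil sum and the T and NK cell sum did not overlap between groups. Within the first list Prg2 and Epx were higher without overlap, while Siglecf, Cpa3, Mcpt8 and Gata2 each overlapped. The part of any of these cells in the receptor values was not tested.

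**Figure D4:**
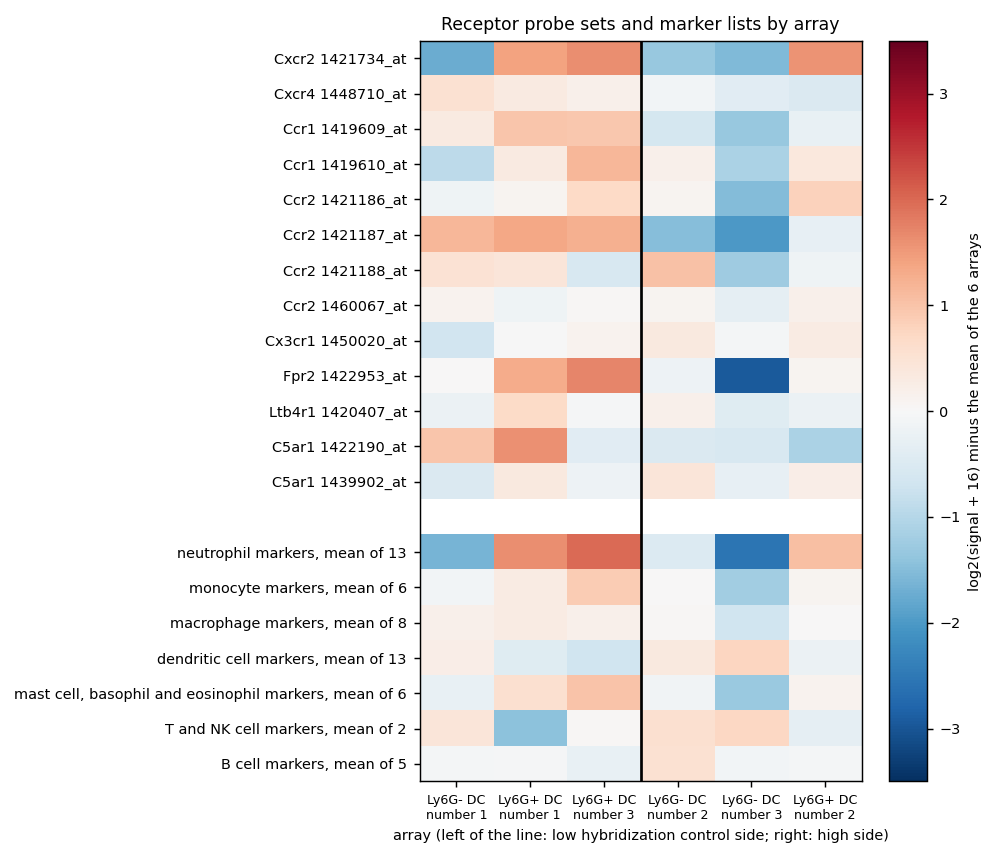
Log2(signal + 16) minus the mean of the 6 arrays for each kept receptor probe set, and the same averaged over each marker list, with arrays of the low hybridization control side left of the line and of the high side right of it. Cxcr2 and the neutrophil markers are above their mean on all 3 Ly6G+ arrays and below it on all 3 Ly6G- arrays, while Cxcr4, a Ccr1, a Ccr2 and a C5ar1 probe set are higher on the low side.

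Likeness to Cxcr2 and to Ccr2 was ranked by Pearson's r of log2(signal + 16) over the 6 arrays, across the other 13261 genes tested. The genes nearest to Cxcr2 were Psmd1, a proteasome subunit (r = 0.996), Arhgef10l (0.995), D830025C05Rik (0.987), A930033H14Rik (0.986) and Zfp341 (0.984). Their log2 fold changes were 0.43 to 1.84, and 21 genes had r above 0.95. The genes nearest to Ccr2 were AI504432 (0.991), Stx3 (0.988), Myo1d (0.987), Cdk19 (0.983) and Gng2 (0.983), and 43 had r above 0.95. With 6 arrays that share 2 groups, many genes reach such values, and the ranks are a description.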

How the data were processed

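Expression was measured on 6 arrays, 3 of Ly6G+ and 3 of Ly6G- dendritic cells, grouped by their titles. The authors deposited 1 linear intensity for each probe set and array, with the same trimmed mean on every array. MAS5, GCOS and Affymetrix Expression Console 2.0 are listed in the submitters' processing notes, with settings not given in the sources used here. Per the labels' protocols, 200 ng of RNA was amplified from oligo-dT, which favours 3' ends. MAS5 leaves dim probe sets noisy, and scaling lets a brighter array shift all genes. The number of arrays limits the precision.

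Of 45101 probe sets, 34958 had 1 symbol in the platform annotation, 932 several and 9211 none. Differences came from limma 3.58.1 under R 4.3.3, fitting the group alone by lmFit and moderating variances by eBayes along an intensity trend, with Benjamini-Hochberg adjustment over all genes and a threshold of 0.05. As a check of the code, the fit was also run on simulated data with noise drawn independently for each gene and array. That noise held no hybridization control sides, so the run says nothing of their effect here. Alternatives were 2 other scalings (quantile, common median), a pseudocount of 1 or 64 in place of 16, dropping the filter or raising it to the 60th percentile, variances without the trend or robust, blocks (replicate number, hybridization control side, array name), other uses of a gene's probe sets, and leaving out each array. The receptors, lists and alternatives were chosen with earlier results of these data known.

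Named were all receptors, and from each further list the genes past the threshold, or else up to 5 with the smallest p, and the 2 brightest.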

Additional observations from a re-analysis of the deposited data

How the results depend on the processing

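Counts of calls depended on the setting. Limma called 0 genes and 0 of the receptors in the fit of the group alone, where 915 genes had an unadjusted p under 0.05. It called 2 genes after quantile normalization, 8 with a common median, 1 with a pseudocount of 1, 9 with one of 64, 1 without the intensity trend, 9 when blocked by hybridization control side, 19 when blocked by array name, and 2 with a gene's probe sets averaged. In each of these except the pseudocount of 1, where it was 0, 1 receptor was called, and it was Cxcr2. Leaving out 1 array gave 0 to 26 calls (26 without Ly6G- DC 1, 14 without Ly6G- DC 2, 1 without Ly6G+ DC 2) and 0 to 1 receptors, with Cxcr2 called without Ly6G- DC 1 or Ly6G- DC 2. With the replicate number as a block, limma called 20 genes and 1 receptor, Cxcr2, at an adjusted p of 0.0265. Same-numbered samples deviated from their group means with correlations of 0.52, 0.26 and -0.04, so the numbers were not taken to pair the samples, and sample 2 of Ly6G+ DC correlated better with number 3 (0.32).

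Cxcr2, Fpr2, Ccr1, Ccr2, Ltb4r1 and C5ar1 kept a positive log2 fold change under all 19 alternatives. That of Cxcr4 (-0.02) was 0.30 with a common median and -0.23 to 0.24 over the left-out arrays. Over the same arrays that of Cx3cr1 ran from -0.011 (Ly6G- DC 1 left out) to 0.49, that of Ccl9 from -0.018 (the same array) to 0.23, and that of Cdc42 from -0.14 (the same array) to 0.22. The cause was not tested. Dim signals, such as Cxcr2 in Ly6G- DC, limit what folds can be given.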
